A study of Saccharomyces cerevisiae with 11 samples.

Results

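The comparison described here set RNA of an rtt106 deletion strain of budding yeast against RNA of its wild type parent, both without drug, on 1 two-channel array of the 11 in the study. The array was chosen by its sample title, and every gene on it was described by the log2 of deletion over wild type signal, averaged over 2 repeat measurements of each probe. Of 6256 genes on the array, 5956 gave a signal above the floor in at least 1 channel, where the floor was the median signal of URA3, LEU2, HIS3 and LYS2, genes deleted from the parent BY4742, and detection meant more than 2 times that floor.

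Rtt106 is a chaperone of histones H3 and H4. Together with chromatin assembly factor 1 it places newly made, acetylated H3-H4 onto DNA behind the replication fork, and it acts with the HIR complex and Asf1 at histone genes and with the Sir proteins in silencing. Its name comes from a screen for regulators of Ty1 transposition.

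The parent was BY4742, a haploid laboratory strain of mating type alpha, and the RTT106 gene was removed from it by homologous recombination. Both strains grew at 30 °C in rich glucose medium. The 4 other strains lacking ASF1, VPS75, NAP1 or CHZ1, which encode other histone chaperones, were each compared with wild type in the same way, and each of the 5 deletion strains, and the parent itself, was also profiled after 1 hour of 10 µM trichostatin A, an inhibitor of histone deacetylases (TSA), added at an optical density of 0.5. The density at which the untreated cultures were harvested was not given in the sources used here.

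A single array of a single deletion strain was available, with no replicate culture and no dye swap, so the differences from wild type carry no p-value, and a dye effect, the difference between these cultures and the effect of the deletion cannot be told apart. The 2 repeat measurements were technical. Values were taken as log2 of signals raised by 50 and normalized by loess, which sets the centre of the array near 0 at every signal strength, and the added 50 shrinks the ratios of dim genes. In bulk RNA, fewer cells expressing a gene and less RNA per cell cannot be told apart. Median signals of the array were 839 in the wild type channel and 870 in the deletion channel, within the range of 357 to 1095 over the study's arrays, and the correlation of log2 ratios between its 2 repeat measurements across genes was 0.963, against 0.768 to 0.969 on the other arrays.

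The deleted gene checked which strain was on the array. It also set the direction of the ratio, so it cannot check which channel held wild type. RTT106 (YNL206C), with 838 and 809 signal units in the wild type channel, stood at 71 and 32 in the deletion channel. Its log2 ratio was −3.25 (−2.96 and −3.54 in the 2 repeat measurements). The mean deletion signal of 51.5 lay at the detection limit of 52, so the size of the difference is not well measured. RTT106 had the lowest ratio of all detected genes on the array. On the 4 other untreated deletion arrays it lay between −0.26 and 0.11, and on the array of the rtt106 deletion with TSA it stood at −3.34. Markers of the parent's mating type were compared as well. MF(ALPHA)1, an alpha pheromone gene, gave 21020 and 20936 in wild type and 27360 and 26771 in the deletion. Of 7 a-cell genes, MFA2, AGA2 and ASG7 were below the detection limit in both channels, as was the silent gene HMRA1, and MFA1, STE2, BAR1 and STE6 were detected, the brightest of them being STE6 at 479 and 378 in wild type and 807 and 670 in the deletion.

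Genes on both sides of RTT106 were close to their wild type level with 1 exception. Of the 5 protein-coding neighbours on each side in RefSeq order, 9 were detected, and 8 of them lay between −0.39 (SSB2) and 0.34 (NNR1). SPS19, the next gene but one, gave 106 and 109 in wild type and 702 and 675 in the deletion, a log2 ratio of 2.14. The gene between them, SPS18, stood at 0.31, and PSY2 beyond SPS19 at −0.01. YNL205C, a reading frame beside RTT106 that was picked after its values were seen, stood at −0.68 with dim signals of 109 and 92 against 75 and 58.

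Across the array, 63 genes were at least 2-fold higher in the rtt106 deletion, which was 1.06% of the 5956 detected genes, and 14 were at least 2-fold lower, 0.235%. Of the 63, 55 passed 2-fold in both repeat measurements taken alone, and of the 14, 10 did. At 1.5-fold the numbers were 243 higher (4.08%) and 79 lower (1.33%). Just inside the 2-fold limit stood SER3 at 1.00 and YOR385W at −1.01, and just outside it OYE3 at 0.99 and HAL1 at −0.9997.

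The higher and the lower genes differed in how brightly they were measured. The 63 higher genes had a median wild type signal of 118, and 38 of them (60.3%) lay below 200, as did 14.3% of all detected genes. The 14 lower genes had a median wild type signal of 1923 and none lay below 200. Among the 776 genes with a mean signal of both channels under 200, 10.1% passed 1.5-fold upward and 0.773% downward. Between 200 and 10000 those shares were 3.09% and 1.34%, and from 10000 up, 4.5% and 2.4%. Before normalization the median log2 ratio was 0.64 in the dimmest of these classes, 0.02 in the middle one and 0.37 in the brightest. Ratios of very dim and very bright genes rested on the loess curve more than the others did. How far signal strength took part in the excess of higher genes was not tested.

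**Figure D1:**
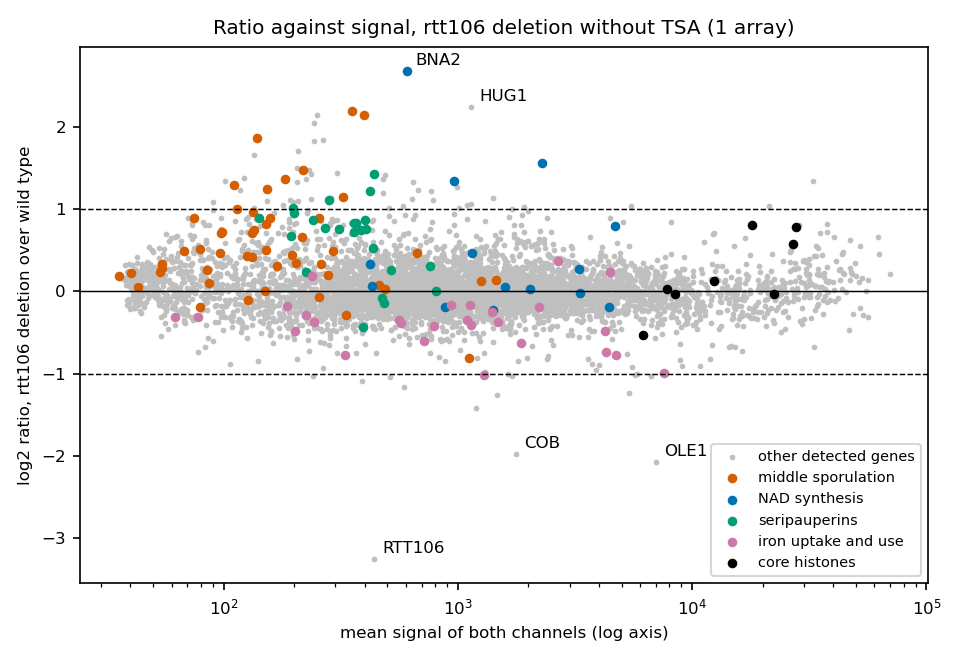
Log2 ratio of deletion over wild type (vertical axis) against the mean signal of both channels (log axis) for the 5956 detected genes of the rtt106 array, each point 1 gene, with members of 5 gene lists in colour and dashed lines at a 2-fold difference. RTT106 at −3.25, OLE1 at −2.07 and COB at −1.97 stand apart below, and BNA2 at 2.67 and HUG1 at 2.24 above.

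The largest ratio on the array belonged to NAD synthesis. BNA2 encodes the dioxygenase that opens the tryptophan ring in the first step of the kynurenine pathway, by which yeast makes NAD anew. Its signals were 115 and 128 in wild type and 1039 and 1136 in the rtt106 deletion, a log2 ratio of 2.67 (6.38-fold). BNA1, encoding 3-hydroxyanthranilate dioxygenase later in the same pathway, went from 1248 and 1014 to 3790 and 3071, a log2 ratio of 1.56. BNA4, the kynurenine monooxygenase gene, gave 482 and 549 against 1265 and 1570, a log2 ratio of 1.35. In all 3 genes both deletion signals exceeded both wild type signals by a wide margin.

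TNA1, the gene of the nicotinic acid permease, was also higher, at 3528 and 3184 against 6133 and 5941, a log2 ratio of 0.80. These 4 were the members at least 1.5-fold higher among the 14 NAD genes detected (28.6%, against 4.08% of all detected genes), and none was 1.5-fold lower. The list's median was 0.17. Other BNA genes lay within 1.5-fold of wild type, with BNA7 at 0.33, BNA6 at 0.27, BNA3 at 0.05 and BNA5, the kynureninase gene, at −0.18. The salvage genes PNC1 (nicotinamidase) and NPT1 stood at −0.02 and −0.18.

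Genes of sporulation made up the next group, although the cells were haploid and growing in rich medium. CDA1, which encodes a chitin deacetylase of the spore wall, gave 95 and 77 in wild type and 659 and 587 in the deletion, a log2 ratio of 2.20. DTR1, the dityrosine precursor transporter of the prospore membrane, gave 84 and 74 against 353 and 362, a log2 ratio of 1.48. LDS1, a lipid droplet protein of spore wall assembly, was not detected in wild type (17 and 22). It gave 259 and 258 in the deletion, a log2 ratio of 1.86 (3.64-fold). With wild type below the detection limit, the size of the LDS1 difference is not well measured. SPS19, described above as a neighbour of RTT106, encodes a peroxisomal dienoyl-CoA reductase used in sporulation on fatty acids.

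Of 34 detected genes on a list of meiosis and sporulation, 9 were at least 1.5-fold higher (26.5%, against 4.08% of all detected genes and 10.1% of those with a mean signal below 200) and 1, IME1, was at least 1.5-fold lower. The median of the list was 0.32, and 1.19 in plain log2 ratios. SGA1, the sporulation glucoamylase, stood at 1.37, the septin gene SPR28 at 1.25 and the spore wall gene SPS100 at 1.00. Some genes that act earlier were closer to 0 or below it. IME1, the master activator of meiosis, gave 151 and 127 in wild type and 78 and 70 in the deletion (log2 ratio −0.88). IME2 stood at −0.25, and SPO13, REC8 and ZIP1 stood at 0.27, 0.18 and −0.06. RED1 and HOP1, genes of the meiotic chromosome axis that also act early, were higher, at 0.93 and 0.39.

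A wider list of genes switched on in the middle of sporulation, written after these values had been seen, held 50 detected genes. Of these, 19 were at least 1.5-fold higher (38%, against 4.08% of all detected genes and 10.1% of those with a mean signal below 200). In the other direction 1 was at least 1.5-fold lower (2%, against 1.33% of all detected genes). Above 0 lay 45, and the median was 0.45. Besides the genes named above, RRT12 stood at 1.30, MIP6 at 1.15, MAM1 at 0.97, SHC1 at 0.90, DIT1 at 0.90 and SPO74 at 0.89. Not every member was high: SSP1 stood at −0.10, GAS2 at −0.19 and OSW2 at −0.28, and the B-type cyclin gene CLB1 at −0.81. The list's median wild type signal was only 80.8, so its ratios depend on the treatment of dim spots, and the median was 1.23 when plain log2 ratios were used.

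Sum1, Rfm1 and the NAD-dependent deacetylase Hst1 form a complex known to repress middle sporulation genes and the BNA genes in growing cells, and Ndt80 is the activator that takes its place in meiosis. None of the genes for these proteins was 1.5-fold away from wild type. SUM1 stood at 0.07, RFM1 at 0.07, HST1 at −0.03 and NDT80 at 0.11. PHO92, a reader of methylated mRNA that acts in meiosis, was among the 5 highest genes, with 47 and 51 in wild type and 445 and 457 in the deletion, a log2 ratio of 2.15.

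Beyond these groups, the 20 highest genes served varied functions. HUG1, an inhibitor of ribonucleotide reductase that is switched on by the DNA damage checkpoint, gave 335 and 385 in wild type and 1829 and 2011 in the deletion, a log2 ratio of 2.24. PUL3, which encodes a transporter of the iron-binding pigment pulcherrimin, gave 66 and 68 against 406 and 432, a log2 ratio of 1.83. PUL4, the regulator gene next to it, was looked up after the values were seen and stood at −0.46.

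CYB2, the lactate dehydrogenase gene, stood at 1.44. DAL1, encoding allantoinase, stood at 1.49, and ARO10, a decarboxylase of aromatic amino acid breakdown, at 1.41. The RNA-binding protein gene RNP1 stood at 1.84, FRM2, a nitroreductase-like gene, at 1.71, the epoxide hydrolase gene YNR064C at 1.497, THI73, a permease gene of the thiamine list, at 1.43, and HXT9, of the hexose transporter family, at 1.47. KRE21 and YBL065W, at 2.05 and 1.66, are reading frames thought not to encode proteins that overlap VRP1 and SEF1, which stood at 0.22 and −0.10.

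**Figure D2:**
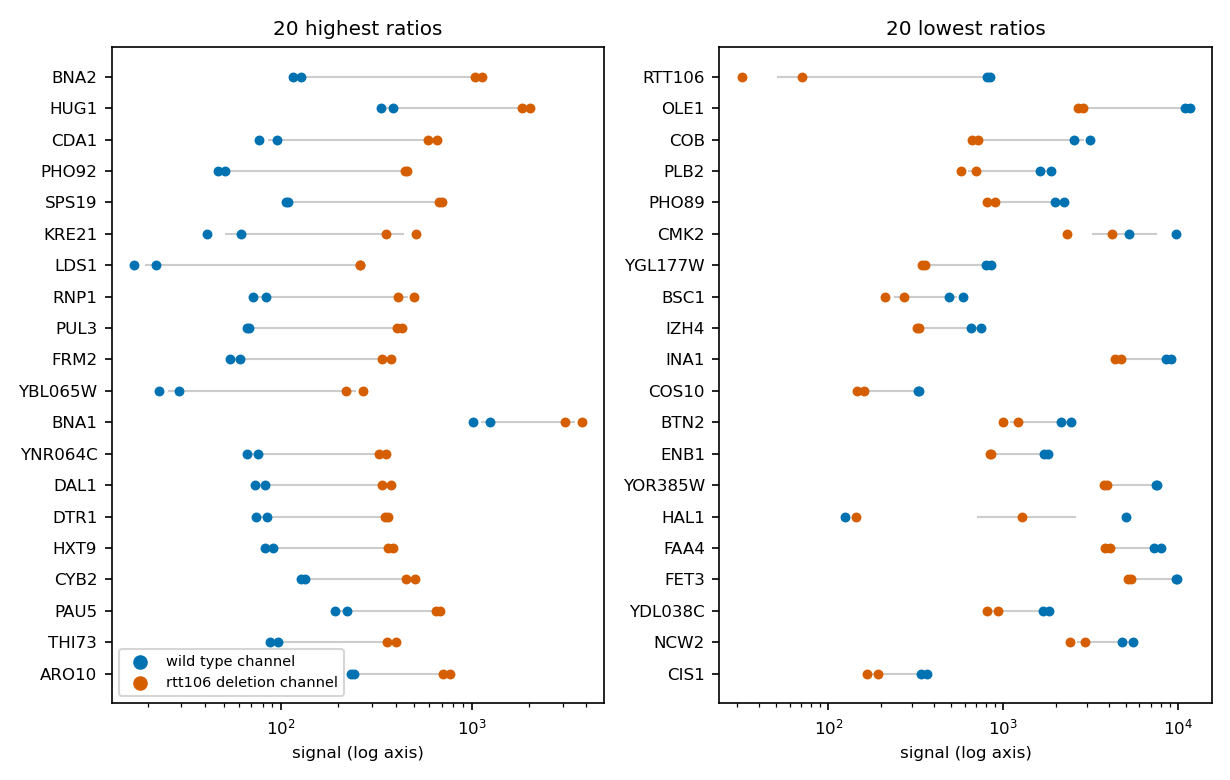
Signals (log axis) of the 20 genes with the highest (left) and the 20 with the lowest (right) ratio on the rtt106 array, with 2 repeat measurements of the wild type channel in blue and 2 of the deletion channel in orange, and a grey line joining the channel means. Blue and orange points do not overlap except for HAL1 on the right, whose repeat measurements disagreed.

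DNA damage and replication genes were examined around HUG1. Of 14 detected genes of ribonucleotide reductase and the damage response, 3 were at least 1.5-fold higher (21.4%, against 4.08% of all detected genes) and none was 1.5-fold lower, with a median of 0.28 (0.43 in plain log2 ratios). RNR3, the damage-inducible large subunit of ribonucleotide reductase, gave 105 and 118 against 230 and 272, a log2 ratio of 0.70. RNR2, the small subunit, stood at 0.60 and RAD54 at 0.46, while RNR1 stood at 0.20, and the checkpoint kinase genes RAD53 and DUN1 at 0.10 and 0.22. Replication genes of G1 and S phase had a median of 0.14 over 26 genes, with none past 1.5-fold.

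The core histone genes did not move as a block. Yeast carries each core histone on duplicate genes arranged in divergent pairs, and Rtt106 is known to act with the HIR complex at all of these pairs but HTA2-HTB2. HHT1 and HHF1, a divergent H3 and H4 pair, stood at 0.80 and 0.57. HHT1 gave 11760 and 10918 in wild type and 25823 and 23330 in the deletion. The other H3 and H4 pair, HHT2 and HHF2, stood at −0.03 and 0.13, with HHT2 at 20084 and 19264 against 24168 and 25936.

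Among the H2A and H2B genes, HTA1 gave 16916 and 16691 in wild type and 37868 and 39290 in the deletion, a log2 ratio of 0.78. Its divergent partner HTB1 stood at −0.03, HTA2 at 0.03 and HTB2 at −0.53, with HTB2 at 7040 and 7312 against 5178 and 5233. The plain log2 ratios without normalization were 1.20 for HTA1, 1.12 for HHT1 and 0.99 for HHF1, 0.35 for HHT2 and 0.36 for HHF2, 0.10 for HTB1 and 0.15 for HTA2, and −0.46 for HTB2, and HTB1 and HHT2 lay on opposite sides of 0 under the 2 scalings. Histone gene copies are similar in sequence, and whether each probe tells them apart was not tested. The variant and linker genes HTZ1, CSE4 and HHO1 stood at −0.25, −0.06 and 0.02.

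Genes of other H3-H4 chaperones and of the histone acetylation pathway that feeds Rtt106 were near wild type. Of 24 such genes, all detected, RTT106 itself was the one past 1.5-fold, and the list's median was −0.01. RLF2, also known as CAC1, the large subunit of chromatin assembly factor 1, stood at 0.34, CAC2 at 0.13 and MSI1 at 0.14. ASF1 stood at −0.02, the acetyltransferase gene RTT109 at 0.30 and VPS75 at −0.11. The HIR genes HIR1, HIR2, HIR3 and HPC2 stood at 0.04, −0.01, 0.01 and −0.12.

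Silent chromatin was examined through its proteins and through the genes that it keeps off. Of 15 silencing genes, none reached 1.5-fold in either direction, and SIR1, SIR2, SIR3 and SIR4 stood at −0.06, 0.03, −0.06 and −0.10. Of the 6 genes of the mating type cassettes, 5 were detected and stood between 0.38 and 0.45, under 1.5-fold. Because the active and the silent copies share sequence, the alpha genes at MAT and HML, and HMRA2, could not be told apart by signal. HMRA1, which only the silent cassette HMR holds in an alpha strain, gave 17 and 10 in wild type and 33 and 23 in the deletion, below the detection limit in both.

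Several genes of mating were higher. MFA1, a pheromone gene of a cells, gave 85 and 78 in wild type and 241 and 252 in the deletion, a log2 ratio of 0.95. STE6, the exporter of that pheromone, gave 479 and 378 against 807 and 670, a log2 ratio of 0.69. Of the other a-specific genes, BAR1 and STE2 stood at 0.21 and 0.18, and MFA2, AGA2 and ASG7 were not detected.

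Among 18 genes switched on by pheromone, 5 passed 1.5-fold upward (27.8%, against 4.08% of all detected genes) and 2 downward (11.1%, against 1.33%), with a median of 0.20 (0.60 in plain log2 ratios). PRM2 stood at 1.23, AGA1, an agglutinin anchor, at 1.06, FIG1 at 0.99 and PRM1 at 0.88, while PRM5 and PRM4 stood at −0.82 and −0.59. AGA1 gave 773 and 657 against 1696 and 1434. PRM2, FIG1 and PRM1 were dim in wild type, at 41 and 33, 32 and 29, and 68 and 50. The alpha pheromone gene MF(ALPHA)2 stood at 0.70 and MF(ALPHA)1 at −0.03, the latter at 0.37 in plain log2 ratios.

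Subtelomeric families were higher as groups. Of 24 seripauperin genes, a family of wall mannoproteins near telomeres, all were detected. At least 1.5-fold higher were 16 (66.7%, against 4.08% of all detected genes), and the median was 0.76. PAU5 gave 192 and 221 in wild type and 652 and 685 in the deletion, a log2 ratio of 1.43, followed by PAU3 at 1.22 and PAU15 at 1.11, and at the other end PAU20 stood at −0.43 and PAU18 at −0.14.

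The 8 helicase frames of the Y' repeats at chromosome ends (YRF1) lay close together, with a median of 0.60. Of the 8, 7 were at least 1.5-fold higher (87.5%, against 4.08% of all detected genes). YRF1-2 gave 1944 and 1662 against 3087 and 2599. Members of both families are near-identical in sequence, so their probes may measure the family rather than the single gene, and the counts are not counts of independent genes. The COS family, also near telomeres, differed in direction. None of 11 was 1.5-fold higher (against 4.08% of all detected genes). COS10 (−1.03) and COS8 (−0.63) were at least 1.5-fold lower (18.2%, against 1.33%).

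Stress genes leaned to higher values. Of 40 stress genes driven by the transcription factors Msn2 and Msn4, 12 were at least 1.5-fold higher (30%, against 4.08% of all detected genes) and none was 1.5-fold lower, with a median of 0.35. HSP12, a membrane-stabilising small heat shock protein gene, gave 338 and 408 against 809 and 981, a log2 ratio of 1.12. GRE1 stood at 1.10, the polyubiquitin gene UBI4 at 1.04 and the mitochondrial peroxiredoxin gene PRX1 at 1.03, while the trehalose synthesis genes TPS1 and TPS2 stood at −0.12 and −0.20.

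Heat shock chaperone genes were divided. Of 27, 4 were at least 1.5-fold higher (14.8%, against 4.08% of all detected genes), with SSA4 at 1.13, and 3 were at least 1.5-fold lower (11.1%, against 1.33%), with BTN2 at −1.02, HSP30 at −0.74 and HSP42 at −0.66. HSP104 stood at −0.15 and HSP82 at 0.25.

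Of 33 detected glucose-repressed genes, 5 were at least 1.5-fold higher (15.2%, against 4.08% of all detected genes and 10.1% of those with a mean signal below 200) and none 1.5-fold lower. Their median was 0.34 (0.76 in plain log2 ratios), and their median wild type signal was 113.5. JEN1, the lactate and pyruvate permease gene, gave 101 and 81 in wild type and 382 and 336 in the deletion, a log2 ratio of 1.37. ADH2, the alcohol dehydrogenase that oxidises ethanol, gave 352 and 327 against 956 and 950, a log2 ratio of 1.33, and the malate synthase gene MLS1 stood at 0.90. The galactose genes GAL1, GAL7 and GAL10 stood at −0.27, 0.19 and 0.56, and invertase (SUC2) at −0.31. Among hexose transporters HXT5, expressed in slow growth, stood at 1.11, and HXT3, a low-affinity transporter of glucose-grown cells, at −0.65.

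Genes of vitamin synthesis included further higher members. Of 20 thiamine genes, 5 were at least 1.5-fold higher (25%, against 4.08% of all detected genes and 10.1% of those with a mean signal below 200) and none 1.5-fold lower. Their median was 0.29 (0.47 in plain log2 ratios), and their median wild type signal was 141. The thiamine permease gene THI7 gave 1332 and 1230 against 2581 and 2386, a log2 ratio of 0.93, and THI4 stood at 0.73. The near-identical THI5, THI11, THI12 and THI13 stood between 0.16 and 0.60. SNZ1, of vitamin B6 synthesis, gave 446 and 418 against 1084 and 1117, a log2 ratio of 1.23.

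The lower genes began with lipid synthesis. OLE1, the only fatty acid desaturase of yeast, gave 10928 and 11622 in wild type and 2665 and 2848 in the rtt106 deletion, a log2 ratio of −2.07 (4.21-fold lower). FAS1, the beta subunit of fatty acid synthase, gave 11974 and 9991 against 7330 and 6210, a log2 ratio of −0.83, and FAS2, the alpha subunit, stood at −0.64. OLE1 was the brightest of the 14 lower genes and the one furthest from 0 after RTT106.

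INO2, an activator of phospholipid synthesis genes, stood at −0.62, and the acetyl-CoA carboxylase gene ACC1 at −0.40. In the other direction OPI3, a phospholipid methyltransferase, gave 1291 and 1385 against 2300 and 2446 (log2 ratio 0.80), and INO1, of inositol synthesis, stood at 0.73. Of 20 genes on the list, 4 (20%, against 1.33% of all detected genes) passed 1.5-fold downward and 2 (10%, against 4.08%) upward. Related genes outside the list were the acyl-CoA synthetase gene FAA4 at −0.999 and PLB2, a phospholipase B, which gave 1630 and 1864 against 574 and 695 (log2 ratio −1.41). The membrane receptor-like genes IZH4, IZH2 and IZH1 stood at −1.04, −0.84 and −0.75. The 27 ergosterol genes had a median of −0.003 and none passed 1.5-fold.

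Iron genes were lower together. Of 27 detected genes of iron uptake and use, 24 lay below 0, 7 were at least 1.5-fold lower (25.9%, against 1.33% of all detected genes), none was 1.5-fold higher, and the median was −0.37. FET3, the ferroxidase of high-affinity uptake, gave 9776 and 9897 in wild type and 5146 and 5382 in the deletion, a log2 ratio of −0.996, and its partner permease FTR1 stood at −0.49. ENB1, a siderophore transporter, stood at −1.01, ARN1, another, at −0.77, and the ferric reductase gene FRE1 at −0.77.

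Phosphate genes leaned lower as well. PHO89, a sodium and phosphate cotransporter, gave 1971 and 2222 against 810 and 896, a log2 ratio of −1.25. The acid phosphatase genes PHO12 and PHO11, which are near-identical, stood at −0.90 and −0.82, and PHO5 at −0.53. PHO84, the main high-affinity transporter, stood at −0.17 and PHO81, the pathway's kinase inhibitor, at −0.08. These 3 (PHO89, PHO12 and PHO11) were the members at least 1.5-fold lower among 18 (16.7%, against 1.33% of all detected genes, with PHO11 and PHO12 not independent), with a median of −0.20 (−0.07 in plain log2 ratios).

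Other lower genes had varied roles. CMK2, a calmodulin-dependent kinase gene, gave 5210 and 9766 in wild type and 2300 and 4208 in the deletion, and its log2 ratio of −1.23 was close in both repeat measurements (−1.17 and −1.29) although the signals were not. PDR5, the main multidrug pump, stood at −0.91 and its regulator gene PDR3 at −0.55. Wall genes went both ways, with NCW2 at −0.96, the wall kinase gene SLT2 at −0.88 and TIP1 at −0.82, against GSC2, the alternative glucan synthase subunit, at 0.91 and CWP1 at 0.85. HAL1, a regulator of salt tolerance, owed its place to 1 repeat measurement, with 5001 against 1287 in the first and 124 against 144 in the second.

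COB, the mitochondrial gene of cytochrome b, was the third lowest gene of the array. It gave 2536 and 3150 in wild type and 659 and 712 in the deletion, a log2 ratio of −1.97 (3.92-fold lower). The other mitochondrial genes did not follow it. Of the 9 listed protein genes of the mitochondrial genome, COB was the only one below 0, and the others stood between 0.10 (COX3) and 0.69 (VAR1), with OLI1 at 0.55 (10946 and 10772 against 19839 and 18780).

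Taking all 23 mitochondrial reading frames on the array, 21 were detected, and of the 20 besides COB, 16 lay above 0 and 4 below, with a median of 0.37. The intron-encoded frames of COB itself, looked up after its value was seen, stood at −0.26 (BI2), −0.53 (BI3) and 0.16 (BI4). The difference at the COB probe was larger than at any frame within its introns.

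Growth-related genes mostly stayed within 1.5-fold of wild type, and those of ribosome biogenesis leaned lower. Of 65 ribosome biogenesis genes, 55 lay below 0, against 2983 of all 5956 detected genes, and the median was −0.17. At least 1.5-fold lower was 1, UTP20 at −0.65 (1.54%, against 1.33% of all detected genes). The 138 cytosolic ribosomal protein genes had a median of 0.09, but 0.50 in plain log2 ratios, since they were among the brightest genes (median wild type signal 21573). Mitochondrial ribosomal protein genes (69), sulfate and methionine genes (31) and amino acid permease genes (18) had no member past 1.5-fold, with medians of −0.07, 0.04 and 0.003. Of 16 host genes that limit or help Ty1 movement, RTT106 was the only one past 1.5-fold.

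**Figure D3:**
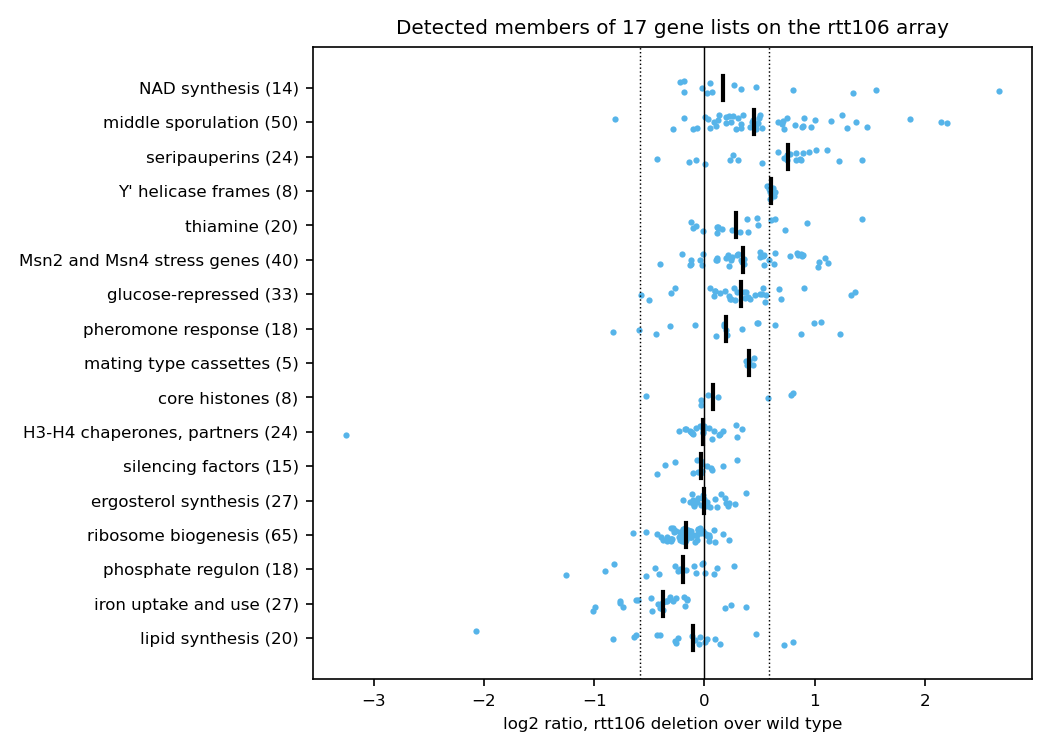
Log2 ratios of deletion over wild type (horizontal axis) for the detected members of 17 gene lists on the rtt106 array, each point 1 gene and the black bar the list median, with the number of detected members in brackets and dotted lines at a 1.5-fold difference. Seripauperin (median 0.76), Y' helicase (0.60) and middle sporulation genes (0.45) lie to the right, iron genes (−0.37) to the left, and silencing genes (−0.03) around 0.

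Whether a ratio was particular to the rtt106 deletion was tested against the 4 other untreated deletion arrays with limma, across 6035 genes, on the assumption that the lone array varies like the others. RTT106 was the single gene called at a Benjamini-Hochberg adjusted p of 0.05 (0.0166% of the genes tested). It was lower by 3.15 on the log2 scale (SE 0.213), a difference that removing the gene from this strain alone fixed in advance. No gene was called higher. At an unadjusted p under 0.05, 128 genes were higher and 31 lower. The call of RTT106 was lost without the asf1, the nap1 or the vps75 array, with 0 genes lower in each.

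None of the 20 highest genes and none of the 19 lowest besides RTT106 passed this test, all with an adjusted p of 0.999 by limma. For BNA2 the difference from the mean of the other deletions was 2.69 (SE 1.22), for SPS19 1.81 (SE 0.513), for DTR1 1.47 (SE 0.220), for OLE1 −1.85 (SE 0.753) and for COB −2.10 (SE 0.493). DTR1 lay between −0.15 and 0.21 on the 4 other arrays, where BNA2 spread from −1.69 to 1.90. In simulated data with 200 changed genes among 6035, the same test recovered 26% of log2 differences of 1 and 87% of log2 differences of 3. These shares hold for that number of changed genes and may be lower on the real arrays. A gene that did not pass may therefore still differ from the other deletions.

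With all 10 deletion arrays in 1 fit, TSA as a term and strain as a random block, 26 genes were called higher and 2 lower in the rtt106 strain. The 2 lower genes were RTT106 and COB (−2.60, SE 0.383, adjusted p = 0.0251). The higher ones included DTR1 (1.47, adjusted p = 0.00129), JEN1 (1.29, adjusted p = 0.00444), PHO92 (1.92, adjusted p = 0.00818), PUL3 (1.64, adjusted p = 0.0219), LDS1 (1.502, adjusted p = 0.0281), CDA1 (1.86, adjusted p = 0.0444) and SPS19 (1.81, adjusted p = 0.0479). The 2 arrays of a strain may share a culture history, and these p-values may then be too small.

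The values of the leading genes are given side by side because the arrays may share their wild type RNA, which would make them move together. The labels leave a doubt about some of them: for the arrays of deletion strains with TSA and for the chz1 array, whose treatment entry reads glucose, the channel 1 entries name the untreated deletion strain, while the descriptions name wild type. Wild type was assumed, and the deleted gene stood at −3.34 on the rtt106 array with TSA and at −2.86 on the chz1 array. On the array of the rtt106 deletion with TSA, the 20 highest genes stood between 0.59 (YNR064C) and 2.36 (BNA2), and the 19 lowest besides RTT106 between −2.34 (COB) and −0.04 (IZH4). OLE1 stood there at −0.64, PHO89 at −1.60 and BSC1, a wall gene at −1.08 without TSA, at −2.20.

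On the array of the asf1 deletion, which removes the chaperone that hands H3-H4 to the acetyltransferase Rtt109, HUG1 stood at 3.10, BNA2 at 1.90, CDA1 at 1.29, SPS19 at 1.20 and PHO92 at 0.78. The same array gave 0.21 for DTR1, 0.12 for BNA4 and 0.14 for JEN1. HSP12 stood at 4.51 there and RNR3 at 1.72, against 1.12 and 0.70 in the rtt106 deletion. COB stood at 0.87 on it and OLE1 at −0.19.

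On the vps75, nap1 and chz1 arrays most of the 20 highest genes were near 0, with medians of −0.03, 0.06 and −0.08. ARO10 departed from this, at 1.86 in the vps75 deletion and −2.81 in the chz1 deletion, and BNA2 stood at −1.69 in the chz1 deletion. OLE1 stood at −1.41 in the vps75 deletion, and PHO89 at −1.87 there and −1.39 in the nap1 deletion. BTN2, CMK2 and YOR385W stood at −1.02, −1.23 and −1.01 in the rtt106 deletion. They stood at 2.21, 2.67 and 2.73 in the nap1 deletion, and at 3.09, 1.47 and 2.12 in the chz1 deletion. In the asf1 deletion they stood at −1.01, −0.77 and −0.70, and in the vps75 deletion at −0.55, −1.11 and −1.15. The FET3 and ENB1 values were 0.85 and 1.08 in the chz1 deletion.

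**Figure D4:**
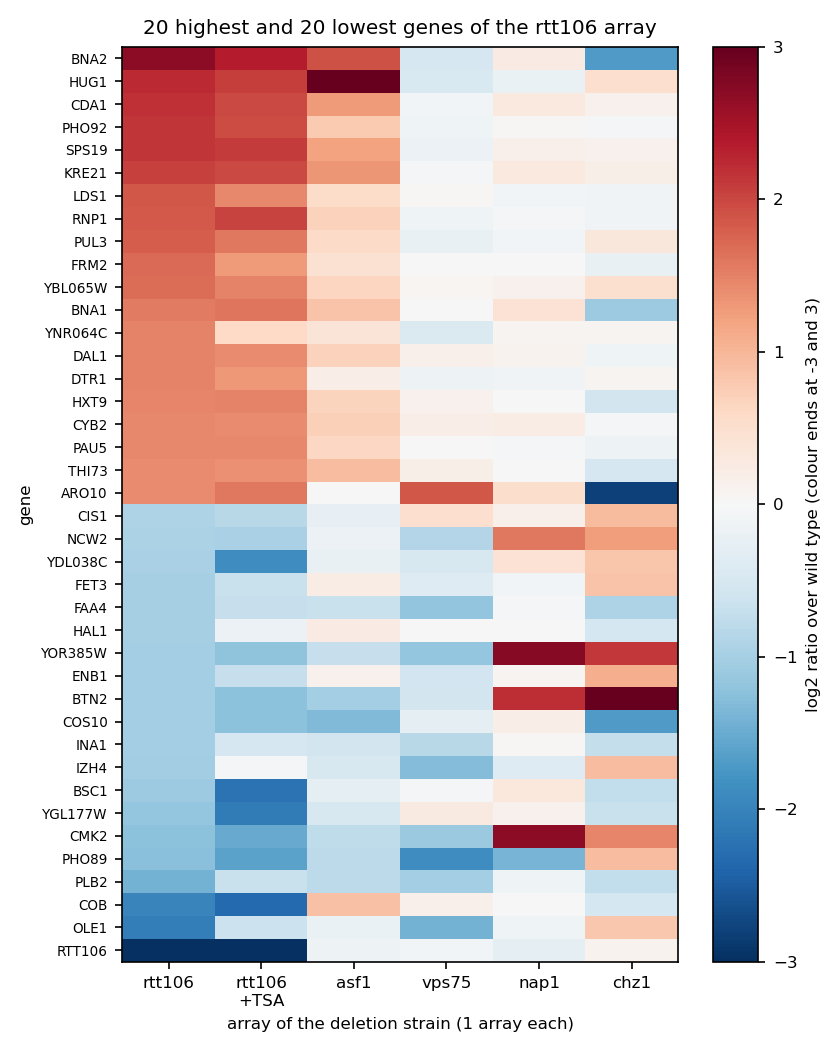
Log2 ratio over wild type (colour, red higher and blue lower, ending at −3 and 3) of the 20 highest and 20 lowest genes of the rtt106 array, 1 row per gene and 1 column per array, with wild type assumed as the reference of the rtt106 array with TSA and of the chz1 array. The rtt106 columns without and with TSA are red above and blue below, the asf1 column is red for BNA2 (1.90), HUG1 (3.10) and CDA1 (1.29), and the vps75, nap1 and chz1 columns are pale for most of the upper rows.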

How the data were processed

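Total RNA was measured on Agilent whole-genome arrays, with wild type RNA in Cy5 and deletion RNA in Cy3 per the labels. The authors deposited for each probe channel intensities, each as 2 repeat measurements, a merged intensity per channel and a log10 ratio of them, per the file headers, and a series matrix of log2 values; the scale and direction of the matrix were found by setting it against the arrays' own files. Any background correction and the scanner settings are not given in the sources used here. As deposited, the log10 ratio ran as wild type over deletion, and all values here are the reverse.

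After adding 50 to each signal, loess (span 0.3, 4 iterations) normalized the log2 ratio of each repeat measurement, and the 2 were averaged, in R 4.3.3 with limma 3.58.1. The deleted gene set each array's direction, and the nap1 array was turned. Symbols and gene order came from RefSeq (assembly R64), in which 5756 of the 6256 systematic names were found and 500 were not. No column lacked a sample.

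On 1 array, calls were folds of 2 or 1.5. The contrast with the other 4 deletions used lmFit and eBayes, Benjamini-Hochberg adjusted over all genes, tested on simulated data. Named were the 20 highest and 20 lowest genes detected in the brighter channel with the same sign in both repeats, RTT106, its 5 neighbours on each side, the core histones, and up to 4 members furthest from 0 in each list described, plus genes called in the contrast; further members were named after their values were seen, for the balance of a group.

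The members and the 57 gene lists were chosen with earlier results of these data known; after the files were read, a wrong pattern was dropped from the mitochondrial ribosome list and an ambiguous synonym from the damage list. The lists of middle sporulation and of the Sum1 complex were written after the values were seen. Alternatives covered the offset, the normalization, the deposited ratios, each repeat alone, detection limits, and the arrays and weights of the contrast. The number of arrays limits the precision.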

Additional observations from a re-analysis of the deposited data

Results flagged for a closer look

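The ratio of RTT106 in the rtt106 deletion was set apart from the other 4 deletions by a log2 difference of −3.15 in limma's fit. It was lower there than on each of the 4 other arrays. RTT106 was removed from this strain alone and set the direction of the array, so the difference was fixed by the design. It identifies the strain and is not a finding about expression.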

How the results depend on the processing

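No paired analysis was possible because each strain and treatment had 1 array and the labels give no replicate numbers. The count of genes at least 2-fold higher was 63 and moved to 122 without the offset, 321 in plain log2 ratios, 271 in the deposited log ratio and 321 in the series matrix, and the count at least 2-fold lower was 14 and moved to 26 without the offset. The split of higher against lower genes was 63 to 14 as reported, 321 to 13 in plain ratios, 271 to 19 in the deposited ratio and 321 to 14 in the matrix. RTT106, at −3.25, stood at −4.33 without the offset, −4.11 in plain ratios, −4.06 in the deposited ratio and −3.96 in the matrix. In the contrast, the count of lower genes was 1 and became 0 with the matrix; leaving out 1 of the other arrays gave 0 to 1 lower and 0 higher. With all 10 deletion arrays the counts were 26 higher and 2 lower. In the matrix, the columns of the vps75 arrays without and with TSA were exchanged against their files. Under the remaining alternatives these counts stayed within 1.5 times. Single genes gave 1585 values within the spread of the repeats and 983 beyond it, and list medians 250 and 281, and no ratio past 2-fold changed sign. In plain ratios, medians moved most for meiosis (to 1.19), middle sporulation (1.23), glucose-repressed (0.76), glycolysis (from −0.06 to 0.35), ribosomal protein (0.50) and pheromone genes (0.60). Weak signal over background limits the ratios of the dim higher genes.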

Other observations

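A retrotransposon reading frame outside the lists, YIL082W, chosen after its values were seen, gave 568 and 539 in wild type and 1427 and 1436 in the rtt106 deletion, a log2 ratio of 1.27. The overlapping frame YIL082W-A stood at 0.60. On the vps75 array the 2 frames stood at 1.09 and 0.95, and on the asf1 array at 0.00 and 0.11.

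Aromatic amino acid breakdown had 3 of 7 genes at least 1.5-fold higher (42.9%, against 4.08% of all detected genes). ARO10 led at 1.41, followed by ARO9 at 0.68 and PDC6, dim in wild type (48 and 36), at 0.62. PDC5 was the only member below 0, at −0.42. LYS1, of lysine synthesis, gave 1793 and 1540 in wild type and 3356 and 2906 in the deletion, a log2 ratio of 0.89. SER3, of serine synthesis, gave 1095 and 1144 against 2255 and 2325, a log2 ratio of 1.00. The asparaginase genes ASP3-3 and ASP3-4, which are near-identical copies, stood at −0.72 and −0.68.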
